A study of Caenorhabditis elegans with 6 samples.

Results

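The outer stretches of Caenorhabditis elegans chromosome III were followed in 500 bp windows of RNA sequencing from early embryos of 3 genotypes. Windows were chosen by position alone: those starting at or before base 4594500 form the left arm, and those starting after base 9189000 form the right arm. The right arm windows that hold set-25, a gene deleted in one of the strains (WBcel235 III 13283824 to 13293090), were left out. That leaves 18359 windows, 9189 in the left arm and 9170 in the right arm, of 200566 in the whole genome.

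The strains were GW638, which carries deletions of both met-2 and set-25, GW828, which carries a deletion of cec-4, and wild-type GW1. Each genotype had 2 independently grown cultures, so that n = 2 throughout and 6 libraries in all. Per the labels' protocols, worms grew in liquid culture on HB101 bacteria at 20 °C for 60 to 65 h, and early embryos were released from gravid adults with hypochlorite. Each strain is one line, the embryos of a culture were pooled, and the extract holds every cell type of the embryo. Fewer cells of a type and less RNA per cell therefore cannot be told apart.

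In this worm the arms of the autosomes are richer in repeats and in histone H3 methylated at lysine 9 (H3K9) than the centres, and in embryos the arms lie near the nuclear envelope. MET-2 adds the first methyl groups to H3K9 and SET-25 adds the last, and together they account for this mark in embryos. The chromodomain protein CEC-4 sits at the nuclear envelope, binds methylated H3K9 and tethers the arms there. The comparisons ask how RNA levels along the arms of chromosome III differ when the mark is missing, and when the tether is missing.

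The targeted genes were read first. In the gene table, met-2 had 80.3 and 72.0 CPM (counts scaled to library size) in met-2 set-25, 413 and 416 in cec-4 and 399.6 and 357 in wild-type. The set-25 gene had 28.3 and 23.0 CPM in met-2 set-25, 117 and 116 in cec-4 and 113.3 and 95.2 in wild-type. The cec-4 gene had 315 and 285 CPM in met-2 set-25, 99.7 and 77.9 in cec-4 and 282 and 272 in wild-type. Each deleted gene was lowest in the strain labelled with its deletion, in both libraries. The deleted stretch of each gene was not given in the sources used here, and counts from the rest of a gene may remain. Libraries held 63512536 to 92014755 window counts, of which the chromosome III arms took 5.13% to 6.89%, with 95% Wilson intervals of at most 0.00623 percentage points to either side that cover counting error only. The ribosomal RNA repeat at the end of chromosome I (its last 25 windows) took 9.93% to 38.05% of the counts. Replicates differed by more than sampling noise in each genotype, and over the arm windows chi-square divided by its degrees of freedom was 11.5 for met-2 set-25, 11.6 for cec-4 and 18.02 for wild-type.

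The right arm had a higher RNA level than the left arm in all 6 libraries. RNA from the mother was not told apart from RNA made by the embryo. In the gene table, 22 maternal early embryo genes summed to 2272 to 2750 CPM in met-2 set-25, 3040 to 3394 in cec-4 and 2456 to 3091 in wild-type. The met-2 set-25 sums thus lay below those of cec-4 and overlapped those of wild-type. A list of 19 early zygotic genes summed to 858 to 1017 CPM in met-2 set-25, 955 to 957 in cec-4 and 926 to 936 in wild-type. The part of embryo stage in the window results was not tested. Summed over its windows, the left arm stood at 27170 ± 1192 CPM in met-2 set-25, 26534 ± 977 in cec-4 and 26576 ± 1053 in wild-type (SD, n = 2 each). The right arm stood at 32646 ± 1583 CPM in met-2 set-25, 31099 ± 1566 in cec-4 and 31285 ± 1615 in wild-type. The ranges of the genotypes overlapped in both arms, and the summed level of neither mutant was separated from wild-type. The log2 ratio of met-2 set-25 to wild-type was 0.032 for the left arm and 0.061 for the right arm, against -0.058 and -0.028 when the windows were scaled by factors from the gene table, and the exact two-sided permutation p was 0.667 for each arm. The left arm held 0.830 and 0.835 of the right arm's level in met-2 set-25, 0.845 and 0.862 in cec-4 and 0.843 and 0.857 in wild-type. Both met-2 set-25 ratios lay below all 4 others, with an exact two-sided permutation p of 0.33 against wild-type, the smallest that 2 libraries against 2 can give.

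Most arm windows had a low RNA level. In wild-type, 28.8% of left arm windows and 33.2% of right arm windows averaged at least 1 CPM, against 44.1% in the centre of the chromosome. The windows of highest wild-type level in the left arm lie in ccdc-47, ppm-1.G, the beta-tubulin gene tbb-2 and the ribonucleotide reductase gene rnr-2, which holds a pair of them. In the right arm they lie in the small heat shock gene sip-1, the histone H3.3 gene his-72, the mitochondrial adenine nucleotide carrier gene ant-1.1, the citrate synthase gene cts-1 and the calnexin gene cnx-1. The sip-1 window, III 10506001 to 10506500, had 310 and 273 CPM in met-2 set-25, 292 and 242 in cec-4 and 317 and 325 in wild-type. The tbb-2 window, III 4016001 to 4016500, had 189 and 145 CPM in met-2 set-25, 176 and 211 in cec-4 and 150 and 188 in wild-type. The genotypes overlapped in the tbb-2 window, and none of these 10 windows passed in any comparison, with log2 fold changes of met-2 set-25 over wild-type between -0.19 and 0.30.

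The windows on either side of the borders held counts in all libraries and passed no test. The innermost window of the left arm, III 4594001 to 4594500, had 29.0 and 32.4 CPM in met-2 set-25, 25.7 and 18.97 in cec-4 and 33.3 and 22.9 in wild-type, and its neighbour outside had 10.98 and 10.4, 9.70 and 10.1, and 10.6 and 7.33 CPM in the same order of genotypes. The innermost window of the right arm, III 9189001 to 9189500, had 28.1 and 32.5 CPM in met-2 set-25, 23.2 and 22.8 in cec-4 and 22.2 and 28.7 in wild-type, and its neighbour outside had 6.97 and 8.62, 5.16 and 3.92, and 6.23 and 4.52 CPM in that order. Levels dropped across both borders in every library.

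In met-2 set-25 embryos, 49 arm windows rose relative to wild-type and 0 fell (edgeR quasi-likelihood test, Benjamini-Hochberg adjusted p under 0.05 over all 108036 windows tested in the genome). DESeq2 called 66 higher and 0 lower, with no genome share taken beside these counts. Enough counts for a test were present in 11686 arm windows, 5699 in the left arm and 5987 in the right arm. The 49 windows are 0.419% of those tested, against a background of 0.446% higher and 0.0241% lower over the genome, so the share in these arms is near the background. Of the 26 lower windows of the genome, 11 lie in met-2 and 6 in set-25, the deleted genes, and the other 9 are 0.00833% of the windows tested outside both. The higher windows held genes such as ceh-91, a homeobox gene, spe-6, a casein kinase gene needed to form sperm, elo-8, of the fatty acid elongase family, and enu-3.5 and enu-3.6, of the enu-3 family. Their rise was 3.64-fold in the median and 2.34-fold to 15.6-fold in range, and in all 49 both met-2 set-25 libraries lay above both wild-type libraries. Over all tested arm windows, 16.3% were separated in that direction and 14.2% in the other, against 14.2% and 14.6% over the genome. In 27 of the 49 the wild-type mean was under 1 CPM, and in none were both wild-type libraries at 0. In 41 of the 49 at least 1 wild-type library held 10 or more counts. The rest, with windows of R10F2.6, C01G12.16, elo-8 and irld-60 among them, passed the count filter only through their met-2 set-25 counts. Their large folds are thus partly a result of that filter. The count fell to 13 without met-2 set-25 replicate 1, to 9 without met-2 set-25 replicate 2 and to 26 with scaling factors from the gene table. Without wild-type replicate 1 there were 10 lower windows, and without met-2 set-25 replicate 1 there was 1.

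In the left arm 25 windows rose, 0.439% of those tested, and in the right arm 24 rose, 0.401%. The balance between the arms changed with the setting: there were 8 left and 18 right arm windows with scaling factors from the gene table, 16 and 22 with upper quartile scaling, and 2 and 10 at an adjusted p under 0.01. At an unadjusted p under 0.05, 175 left arm windows were higher and 121 lower, and 178 right arm windows were higher and 76 lower, against genome shares of 3.01% higher and 1.71% lower. The shares came to 3.07% higher and 2.12% lower in the left arm and 2.97% higher and 1.27% lower in the right arm. The median log2 fold change was -0.039 in the left arm, 0.020 in the right arm and -0.029 over all windows tested. The difference between the arms was not tested. The left arm count was 7 without met-2 set-25 replicate 1 and 2 without replicate 2, and the right arm count was 6 and 7 without the same libraries. Without wild-type replicate 1 there were 25 left and 48 right arm windows.

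Set beside other regions, the chromosome III arms held a smaller share of higher windows than the arms of any other autosome. The share was 0.686% in the arms of chromosome I, 0.756% in those of II, 0.622% in those of IV and 1.30% in those of V. In the centre of chromosome III it was 0.216%, with 14 higher windows, and the centres of the other autosomes held 0.0817%. The X chromosome held 0.144%. The centre of chromosome III also held 11 lower windows, and all 11 lie in met-2, which is deleted in this strain. These shares are a description, and no difference between regions was tested.

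**Figure D1:**
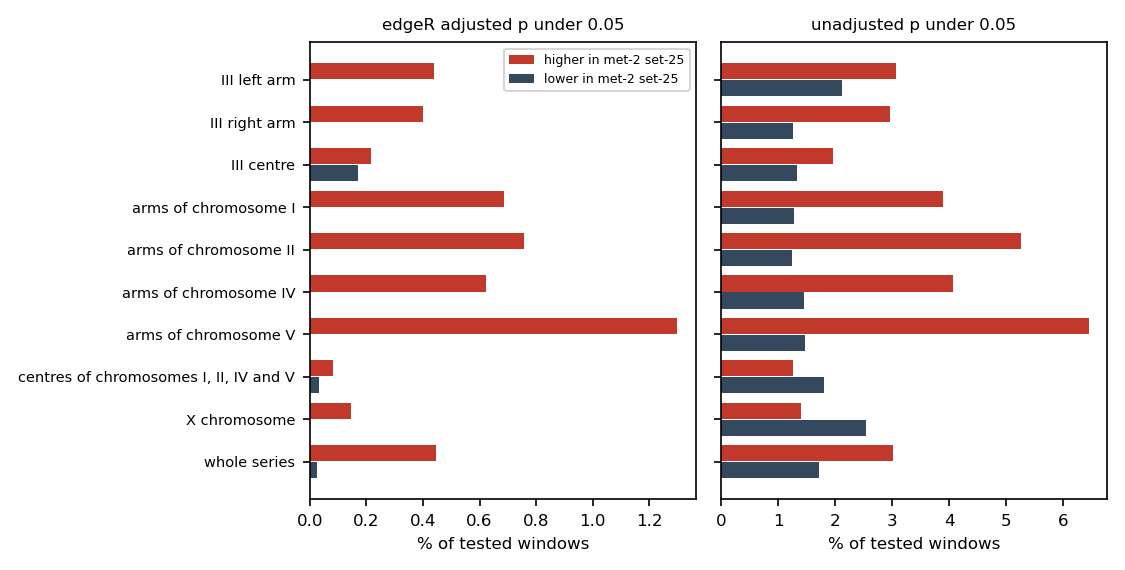
Share of tested 500 bp windows (% of tested windows) called higher or lower in met-2 set-25 embryos, set against wild-type, by region, at an edgeR adjusted p under 0.05 on the left and an unadjusted p under 0.05 on the right. The chromosome III arms stand at 0.439% and 0.401% higher, next to 1.30% for the arms of chromosome V and 0.446% for all windows, and the 11 windows called lower in the centre of chromosome III all lie in the deleted gene met-2.

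The higher windows were spread along each arm, most of them singly or in pairs. Directly adjoining windows formed 34 runs, 17 in each arm, of which 23 were single windows, 8 were pairs and 3 were longer. Grouping windows within 10 kb of each other, a distance chosen after the data were seen, gave 21 loci, 11 in the left arm and 10 in the right arm. The 10 loci with more than 1 window held 38 of the 49 windows, or 77.6%, and the other 11 loci were single windows. Without met-2 set-25 replicate 1 there were 10 runs, and without replicate 2 there were 6.

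Long stretches held none. The largest gap between runs was 1.18 Mb in the left arm, from III 1058000 to 2233501, and 1.12 Mb in the right arm, from III 11624000 to 12749001. Between 2 and 2.5 Mb from the left end lay 15 of the 25 left arm windows, 11 of them at the locus of Y54F10BM.9. In that bin 10.2% of 479 tested windows were higher and 2.3% lower at an unadjusted edgeR p under 0.05, against 3.01% and 1.71% over the genome. The same distance from the right end held 10 of the 24 right arm windows, 8 of them at Y66A7A.4 and ceh-91 and the other 2 at spe-6. There 4.08% of 638 tested windows were higher and 0.94% lower by the same measure, and another right arm bin reached 5.53% higher. These bins were picked for their called windows, which are among those counted, so the shares are a description. Toward the centre of the chromosome the last higher window lay 433 kb inside the border of the left arm and 1.56 Mb inside the border of the right arm. Toward the chromosome ends the first one began 57.5 kb from the left end and 280 kb from the right end.

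**Figure D2:**
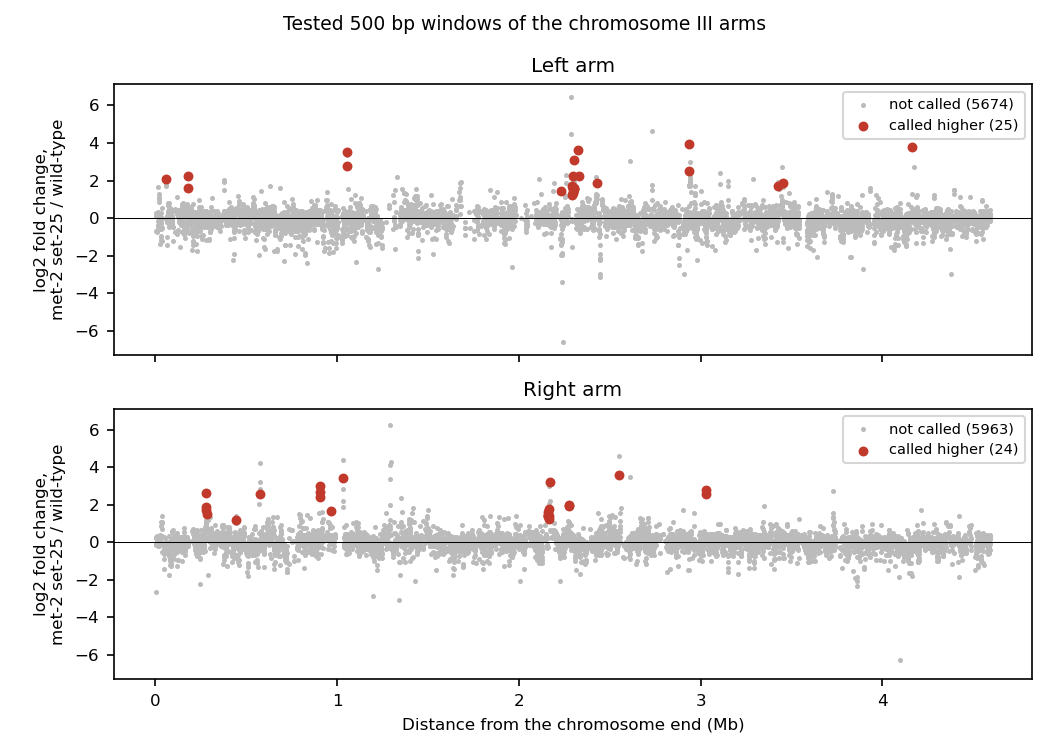
Log2 fold change of met-2 set-25 over wild-type for each tested 500 bp window against its distance from the chromosome end in Mb, for the left arm above and the right arm below. Red points are the 25 and 24 windows that passed the edgeR test as higher, and they fall into 11 loci in the left arm and 10 in the right arm, with gaps between runs of up to 1.18 Mb and none in the innermost 1.56 Mb of the right arm.

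Window positions are those of the deposited table, whose build was not given in the sources used here. Genes were assigned by taking these positions as WBcel235 positions. The table's chromosome III ends at base 13783681, which is not the length of chromosome III in WBcel235, so the table was probably made on another build and positions can differ by a small shift. Over 1530 genes of chromosome III, window sums followed the gene table with a Spearman rho of 0.969 across genes at the best of the shifts tried in steps of 100 bases, -100 bases. Within the arms the best shift was 0 bases over 409 left arm genes and -100 bases over 417 right arm genes. Gene names are thus given at the scale of a gene, and whether a window touches an exon, a gene end or a short RNA is uncertain. Of the 49 windows, 31 (63.3%) were mostly exonic, against 35.3% of tested arm windows, but between 20 and 36 were with shifts of up to 200 bases either way.

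The higher window of largest count lies outside annotated coding genes. At III 178501 to 179000, near the left end, the level was 97.3 and 127 CPM in met-2 set-25, 26.1 and 22.9 in cec-4 and 24.1 and 23.1 in wild-type. The adjoining window, III 179001 to 179500, had 42.2 and 58.1 CPM in met-2 set-25, 17.3 and 11.5 in cec-4 and 18.8 and 14.7 in wild-type. In both windows the met-2 set-25 libraries lay far above the other 4, and cec-4 overlapped wild-type. The log2 fold changes over wild-type were 2.25 (SE 0.23, edgeR adjusted p = 0.00052) and 1.58 (SE 0.27, edgeR adjusted p = 0.0144), and the first is the smallest adjusted p in the arms. Taken as WBcel235 positions, the annotation places nothing there but F40G9.20, a noncoding RNA of 20 bases, between the ends of F40G9.14 at base 177815 and F40G9.6 at base 179542.

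The edges of that run were unequal. The window before it, III 178001 to 178500, had 0.908 and 0.740 CPM in met-2 set-25, 1.39 and 1.46 in cec-4 and 1.0005 and 1.66 in wild-type, and did not pass. The window after it, III 179501 to 180000, had 27.1 and 28.5 CPM in met-2 set-25, 19.2 and 13.98 in cec-4 and 21.2 and 16.98 in wild-type, and did not pass either. In all 3 genotypes the level thus stepped up within 500 bp on the left side. On the right side it fell off toward F40G9.6 in met-2 set-25, while in cec-4 and wild-type the 3 windows from III 178501 to 180000 differed less. F40G9.6 had a log2 fold change of 0.43 (SE 0.21) that did not pass. On the other side, F40G9.14 had a log2 fold change of 0.36 (SE 0.38) that did not pass.

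Along the left arm the longest locus was Y54F10BM.9 (WBGene00021863, protein coding, minus strand, WBcel235 III 2295328 to 2304927). All 21 windows from III 2295001 to 2305500 had a log2 fold change above 0, 11 of them passed as higher, and the median was 1.42. Summed over the 11 windows, the locus stood at 55.99 and 58.4 CPM in met-2 set-25, 22.6 and 22.4 in cec-4 and 18.3 and 21.8 in wild-type. The met-2 set-25 libraries were the highest, and both cec-4 libraries lay just above both wild-type libraries. The longest run in either arm, of 4 windows from III 2296501 to 2298500, lies here, with log2 fold changes between 1.35 and 2.22. Taken as WBcel235 positions, the last window of the locus, III 2305001 to 2305500, lies outside the annotated gene, on the side of its start. That window had 0.343 and 0.463 CPM in met-2 set-25, 0.156 and 0.101 in cec-4 and 0.0222 and 0.0692 in wild-type. Its log2 fold change over wild-type was 3.11 (SE 0.61, edgeR adjusted p = 0.0418), and it is one of 2 higher windows with an unadjusted p under 0.05 in cec-4 against wild-type, which did not pass adjustment.

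**Figure D3:**
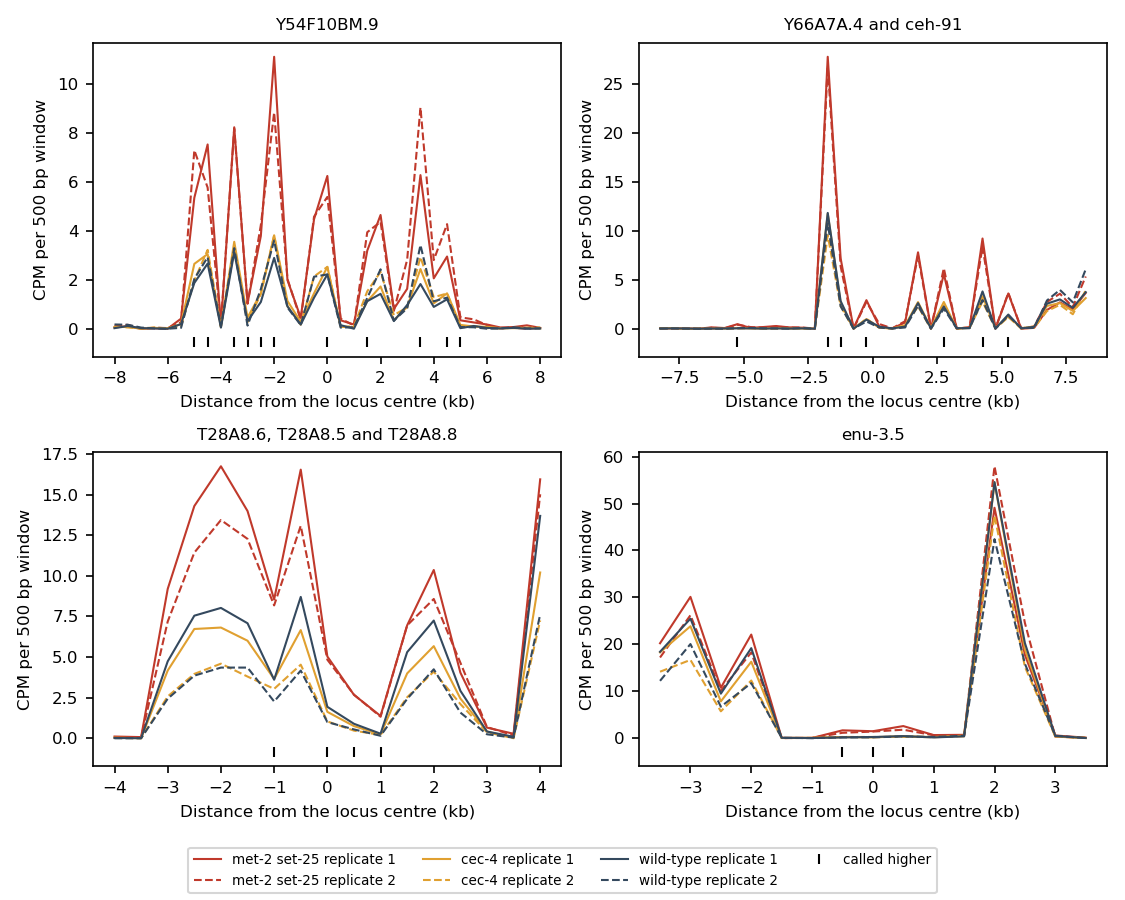
CPM per 500 bp window in each of the 6 libraries across 4 loci, against the distance in kb from the middle of each locus, with ticks under the windows that passed as higher. At Y54F10BM.9 and at Y66A7A.4 and ceh-91 the met-2 set-25 lines lie above the others in the windows that passed, and not in every window between them. At enu-3.5 the windows directly adjoining the 3 that passed have lower levels in met-2 set-25. Windows of high RNA level, which did not pass, lie 2 kb from the middle on either side.

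Downstream in the left arm, windows of very low wild-type level showed the largest folds. R10F2.6 (WBGene00019997, WBcel235 III 2937040 to 2944095) held the window of largest log2 fold change among the 49, III 2937501 to 2938000, with 29 and 20 counts in met-2 set-25, 6 and 8 in cec-4 and 2 and 2 in wild-type. The log2 fold change there was 3.96 (SE 0.69, edgeR adjusted p = 0.0195), and it is the other higher window with an unadjusted p under 0.05 in cec-4 against wild-type, at a log2 fold change of 1.81 that did not pass. The window III 4161001 to 4161500 in C01G12.16 had 26 and 28 counts in met-2 set-25, 6 and 4 in cec-4 and 1 and 4 in wild-type (log2 fold change 3.77, SE 0.66, edgeR adjusted p = 0.0206). All 3 genotypes had few counts in these windows, and in both the cec-4 counts lay at or above the wild-type counts. Both windows had under 10 counts in every cec-4 and wild-type library. They entered the test only through met-2 set-25, the genotype in which they are high, so their folds are a description.

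Y54F10BM.12 (WBGene00021866, WBcel235 III 2326885 to 2329679) overlaps the end of iffb-1, base 2326901, on the opposite strand. On its own strand it overlaps Y54F10BM.13 from base 2329577, so reads of these genes may be mixed at both overlaps. The pair of higher windows of Y54F10BM.12, III 2328501 to 2329500, summed to 1.70 and 1.60 CPM in met-2 set-25, 0.300 and 0.139 in cec-4 and 0.211 and 0.312 in wild-type. Taken as WBcel235 positions, the pair lies between the overlaps, though a small shift could reach Y54F10BM.13. Their log2 fold changes were 3.62 and 2.24. The met-2 set-25 libraries stood clear of the other 4, which overlapped. In the gene table iffb-1 had a log2 fold change of -0.30 (SE 0.28) and Y54F10BM.13 one of -0.17 (SE 0.29), and neither passed. BE0003N10.6 held windows at III 1056001 to 1056500 and III 1057501 to 1058000, which summed to 1.49 and 1.69 CPM in met-2 set-25, 0.345 and 0.189 in cec-4 and 0.245 and 0.162 in wild-type.

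The other 6 loci of the left arm, C01G12.16 among them, had 1 window each. The pseudogene WBGene00021040, nearest to the end, had 1.71 and 1.51 CPM in met-2 set-25, 0.5004 and 0.252 in cec-4 and 0.511 and 0.254 in wild-type. The long noncoding RNA gene C39B5.16, the highest of the 6, had 13.3 and 16.8 CPM in met-2 set-25, 5.68 and 4.48 in cec-4 and 6.79 and 4.42 in wild-type. In both the cec-4 and wild-type libraries overlapped and the met-2 set-25 libraries lay above them. The windows of the pseudogene WBGene00021018, of K01A11.1 and of C34C12.12 had folds over wild-type of 3.63, 3.27 and 3.65. K01A11.1 overlaps the end of metl-18 on the opposite strand, which had a log2 fold change of 0.16 (SE 0.25) that did not pass.

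On the right arm the longest locus was that of Y66A7A.4 and ceh-91, neighbours on the plus strand (WBGene00013424, WBcel235 III 11612607 to 11615801, and WBGene00013425, WBcel235 III 11616746 to 11623994). Of 22 windows from III 11613001 to 11624000, 13 were tested, all 13 had a log2 fold change above 0, and 8 passed, 7 of them in ceh-91. The 8 windows summed to 64.5 and 62.0 CPM in met-2 set-25, 25.5 and 21.4 in cec-4 and 25.7 and 22.5 in wild-type. Here cec-4 and wild-type overlapped and the met-2 set-25 libraries were 2.63-fold higher in the mean. The window of highest level, III 11616501 to 11617000, had 27.7 and 26.8 CPM in met-2 set-25, 11.7 and 9.52 in cec-4 and 11.8 and 10.7 in wild-type. Most windows of the locus that did not pass lie in introns of ceh-91 or between the genes. The window of Y66A7A.4, III 11613001 to 11613500, had 27 and 31 counts in met-2 set-25, 7 and 2 in cec-4 and 3 and 5 in wild-type (log2 fold change 3.22, SE 0.61, edgeR adjusted p = 0.0337).

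The genes enu-3.5 and enu-3.6 belong to a family of related sequences, so reads could be shared between copies and each value is uncertain to that extent. The 3 adjoining windows of enu-3.5, III 12878501 to 12880000, summed to 5.76 and 4.37 CPM in met-2 set-25, 0.856 and 0.833 in cec-4 and 0.867 and 0.750 in wild-type. The pair of windows of enu-3.6, III 10750501 to 10751500, summed to 3.43 and 3.30 CPM in met-2 set-25, 0.612 and 0.555 in cec-4 and 0.489 and 0.565 in wild-type. At both genes the met-2 set-25 libraries were about as far above cec-4 as above wild-type, with no overlap. The log2 fold changes over wild-type ran between 2.40 and 2.99 at enu-3.5 and between 2.59 and 2.80 at enu-3.6, with edgeR adjusted p between 0.00201 and 0.00523. Both windows of enu-3.6, the first 2 of enu-3.5 and the window at III 178501 were the only 5 of the 49 that passed under every alternative setting and with each library left out.

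At T28A8.6, T28A8.5 and T28A8.8, near the right end, 4 of 5 windows from III 13501001 to 13503500 passed, 3 of them adjoining (III 13502001 to 13503500). The 4 windows summed to 17.6 and 17.02 CPM in met-2 set-25, 6.25 and 4.74 in cec-4 and 6.70 and 3.95 in wild-type. Replicate 1 was the higher one in both cec-4 and wild-type, and both met-2 set-25 libraries lay above all 4. The log2 fold change was largest in the window of T28A8.8, at 2.64 (SE 0.39, edgeR adjusted p = 0.0063). In the gene table T28A8.6 and T28A8.5 did not pass, with log2 fold changes of 1.18 and 1.33.

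The spe-6 windows, III 11508001 to 11509000, summed to 7.06 and 6.0005 CPM in met-2 set-25, 1.52 and 1.08 in cec-4 and 1.76 and 1.52 in wild-type. The met-2 set-25 libraries were 3.98-fold higher than wild-type in the mean. A list of 35 sperm genes, spe-6 among them, summed to between 16.9 and 20.4 CPM in met-2 set-25, between 8.53 and 8.94 in cec-4 and between 7.24 and 8.33 in wild-type. Most of that difference was spe-6 itself, and the other 34 genes summed to 6.66 and 5.38 CPM in met-2 set-25, 5.26 and 6.22 in cec-4 and 3.65 and 5.18 in wild-type, where met-2 set-25 overlapped cec-4 and lay above wild-type. Of that list 23 genes were at 0 in all 6 libraries, 6 were tested and 1 passed, which was spe-6 itself. The part of sperm RNA in the result was not tested. Vitellogenin genes, markers of the adult intestine, summed to between 0.295 and 0.744 CPM per library. A list of 9 larval cuticle genes summed to 1721 to 2735 CPM in met-2 set-25, 1700 to 2224 in cec-4 and 1658 to 3383 in wild-type. The genotypes overlapped in that sum, 4 of the 9 genes were tested and 0 passed. The part of embryo stage was not tested.

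The remaining loci of the right arm had 1 window each. The elo-8 window, III 11230501 to 11231000, had 1.01 and 0.965 CPM in met-2 set-25, 0.289 and 0.0505 in cec-4 and 0.10005 and 0.0577 in wild-type (log2 fold change 3.61, SE 0.61, edgeR adjusted p = 0.0145). The irld-60 window, III 12749001 to 12749500, in a gene of the insulin and EGF receptor L domain family, had 0.394 and 0.621 CPM in met-2 set-25, 0.0445 and 0.0631 in cec-4 and 0.0556 and 0.0346 in wild-type (log2 fold change 3.45, SE 0.57, edgeR adjusted p = 0.0135). In elo-8 one cec-4 library lay between the other genotypes, and in irld-60 cec-4 overlapped wild-type. The Y39E4B.11 window had 1.35 and 0.846 CPM in met-2 set-25, 0.167 and 0.164 in cec-4 and 0.178 and 0.185 in wild-type. The windows of BE10.4 and F53A2.3 rose 3.20-fold and 2.34-fold, the last being the smallest rise of the 49. The end of BE10.4 overlaps that of arx-5 on the opposite strand by 19 bases, so reads of the genes may be mixed there. The higher window of BE10.4 ends at base 12816000, before arx-5 begins at base 12816789, and so lies outside that overlap. In the gene table arx-5 had a log2 fold change of 0.09 (SE 0.22) that did not pass.

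**Figure D4:**
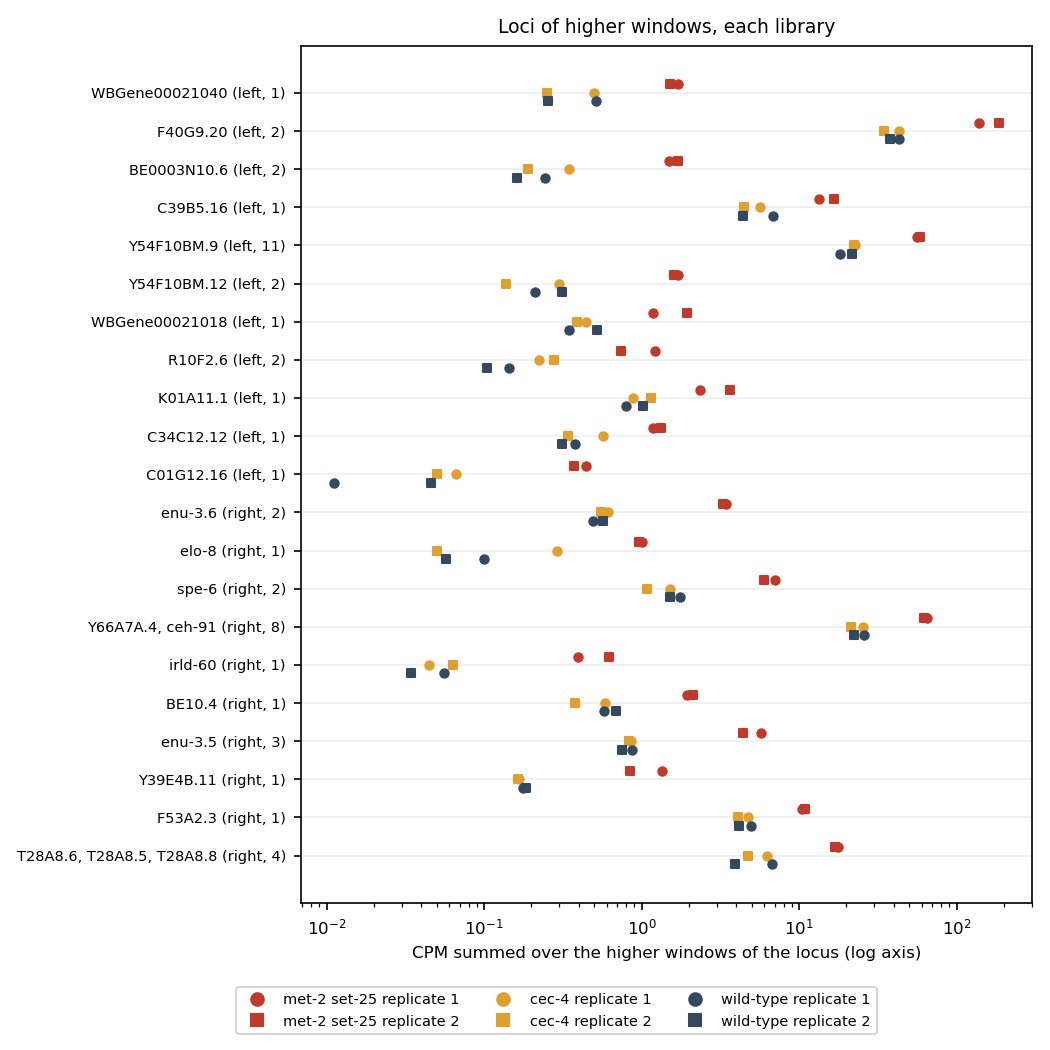
CPM summed over the higher windows of each of the 21 loci, on a log axis, in each library. Named are the genes with most overlap with each higher window of the locus, with the arm and the number of windows in brackets. At every locus both met-2 set-25 libraries lie to the right of both wild-type libraries.

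In the gene table, which counts the same reads over coding lengths, 1535 genes lie in the arms and 1281 could be tested. The deleted gene set-25, in the right arm, is left out of these and all later counts of arm genes; it fell in met-2 set-25, with a log2 fold change over wild-type of -2.02 (edgeR adjusted p = 0.00466). Of the 1281 genes, 13 rose in met-2 set-25 relative to wild-type and 0 fell, 4 in the left arm and 9 in the right arm. That is 1.01%, against a background of 0.659% higher and 0.0287% lower over 13951 genes tested (edgeR adjusted p under 0.05), and the difference was not tested. The lower background is 4 genes, of which met-2 and set-25 are 2, and the other 2 genes are 0.0143%. At an unadjusted p under 0.05, 92 arm genes differed in either direction, and DESeq2 called 21 higher and 0 lower. No genome share was taken beside these values, so they are not set against a background. The median log2 fold change was -0.0020 over the arm genes and -0.026 over all genes. The count was 0 without met-2 set-25 replicate 1 and 0 without met-2 set-25 replicate 2.

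Since both tables count the same reads, the genes are not independent evidence for the windows. Of the 13 genes, 11 held at least 1 higher window. Of the 34 runs, 21 lay in a gene that also passed, 7 in a gene that was tested and did not pass, and 6 in a gene that is not in the gene table. The genes without a higher window were Y54F10BM.3 (WBGene00021858, WBcel235 III 2282025 to 2289992) and Y49E10.25 (WBGene00013044, WBcel235 III 12488679 to 12492084), which had the largest log2 fold changes of the 13. Y54F10BM.3 had 53 and 36 counts in met-2 set-25, 8 and 2 in cec-4 and 3 and 1 in wild-type, with a log2 fold change of 4.75 (SE 0.73, edgeR adjusted p = 0.0307). Y49E10.25 had 44 and 46 counts in met-2 set-25, 4 and 5 in cec-4 and 3 and 2 in wild-type, with a log2 fold change of 4.42 (SE 0.54, edgeR adjusted p = 0.0156). In both the met-2 set-25 libraries stood far above the other 4, on few counts. Y49E10.25 overlaps Y49E10.35, so its reads may be shared.

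Among the genes with a higher window, elo-8 and Y39E4B.11 had the largest log2 fold changes. In the gene table elo-8 had 2.38 and 2.06 CPM in met-2 set-25, 0.545 and 0.292 in cec-4 and 0.219 and 0.167 in wild-type, with a log2 fold change of 3.50 (SE 0.46, edgeR adjusted p = 0.0205). Y39E4B.11 had 2.68 and 1.99 CPM in met-2 set-25, 0.295 and 0.351 in cec-4 and 0.263 and 0.310 in wild-type, with a log2 fold change of 3.01 (SE 0.40, edgeR adjusted p = 0.021). Both genes stayed under 1 CPM outside met-2 set-25, and in elo-8 both cec-4 libraries lay above both wild-type libraries. The log2 fold changes of irld-60, Y66A7A.4, enu-3.5, enu-3.6, R10F2.6 and WBGene00021040 lay between 2.26 and 2.83. Those of spe-6, Y54F10BM.9 and ceh-91 were 1.91, 1.37 and 1.31. All 13 had edgeR adjusted p between 0.0156 and 0.0348.

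**Figure D5:**
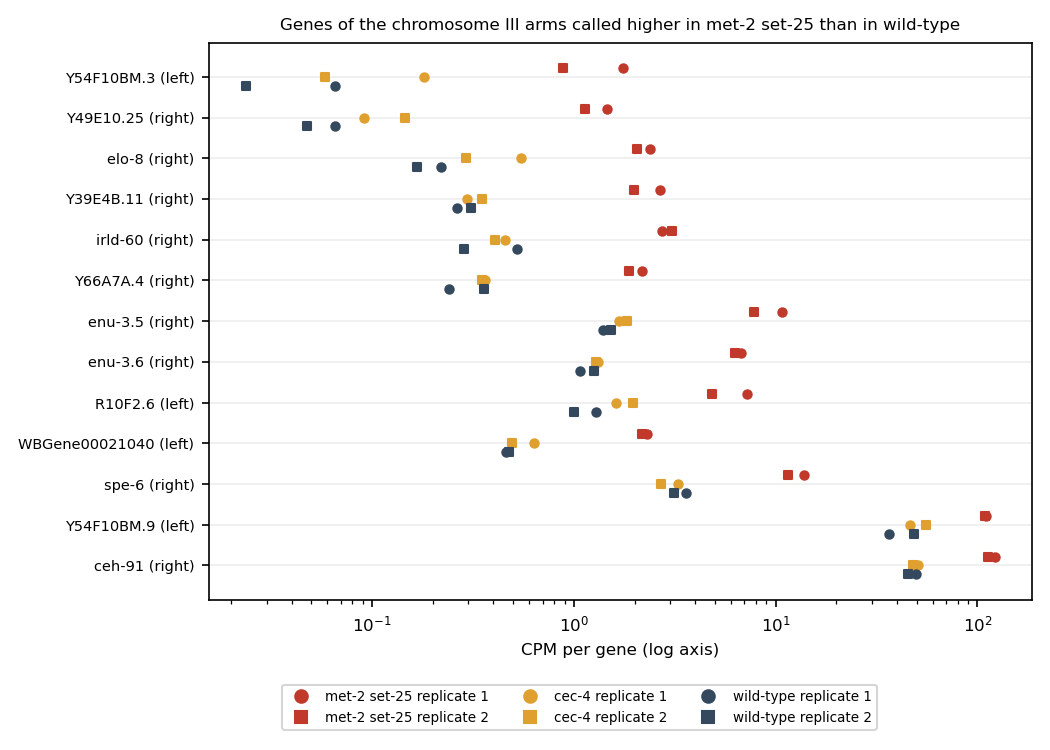
CPM of the 13 arm genes that passed as higher in met-2 set-25 embryos, set against wild-type, on a log axis, in each library, ordered by log2 fold change with the largest at the top. In every gene both met-2 set-25 libraries lie above the other 4.

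In cec-4 embryos no arm window passed in either direction relative to wild-type (edgeR 0 higher and 0 lower, DESeq2 0 higher and 0 lower). The background was 0.00185% higher and 0% lower over the genome. At an unadjusted p under 0.05, 95 arm windows (0.813%) were higher and 67 (0.573%) lower, against 0.816% and 0.958% over the genome. A lack of calls does not show that the windows were unchanged. In the gene table the deleted cec-4 gene itself did not pass in this comparison, with a log2 fold change of -1.64 (edgeR adjusted p = 0.0955).

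The 5 windows of smallest p in cec-4 against wild-type, none of which passed, were scattered. The window III 1161001 to 1161500 in the cadherin gene cdh-12 had 3 and 4 counts in met-2 set-25, 14 and 24 in cec-4 and 4 and 3 in wild-type, a log2 fold change of 2.48 (SE 0.67). The window III 63501 to 64000 in pck-1, the gluconeogenic enzyme phosphoenolpyruvate carboxykinase, had 15.0 and 11.99 CPM in met-2 set-25, 8.66 and 7.95 in cec-4 and 12.3 and 18.4 in wild-type, a log2 fold change of -0.89 (SE 0.25). In both windows cec-4 was separated from the other 4 libraries. The windows of bckd-1A, Y50D7A.1 and the pseudogene WBGene00043993 had log2 fold changes of -3.03, 1.75 and -2.31. No arm gene passed either, against a background of 0.00717% higher, and DESeq2 called 0 higher and 0 lower. At an unadjusted p under 0.05, 13 arm genes differed, with no genome share taken beside that count. The gene of smallest p was the neuropeptide receptor gene npr-15, with 13 and 16 counts in met-2 set-25, 0 and 1 in cec-4 and 11 and 11 in wild-type.

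In the median, the 49 windows that rose in met-2 set-25 were near wild-type level in cec-4, though single windows of low count were not. The largest difference was 3.50-fold above wild-type, in the R10F2.6 window at III 2937501. Their log2 fold change of cec-4 over wild-type had a median of 0.14 and ran between -0.67 and 1.81, 32 of the 49 were above 0, and 2 had an unadjusted p under 0.05. The left arm gave 20 of 25 above 0 with a median of 0.17, and the right arm 12 of 24 with a median of -0.02. Both fold changes share the wild-type libraries, so these values are a description.

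Set directly against cec-4, met-2 set-25 embryos had 50 higher arm windows and 0 lower, 22 in the left arm and 28 in the right arm, in 38 runs. That is 0.428% of those tested, against a background of 0.495% higher and 0.0296% lower (edgeR adjusted p under 0.05), so the share is near the background. Of the 32 lower windows of the genome, 19 lie in met-2 and set-25. At an unadjusted p under 0.05, 515 arm windows (4.41%) were higher and 557 (4.77%) lower, against 4.59% and 4.49% over the genome. DESeq2 called 72 higher and 3 lower, with no genome share taken beside these counts. Over the 49 windows above, the log2 fold change over cec-4 had a median of 1.80 and ran between 1.08 and 3.30, and 15 of 25 in the left arm and 23 of 24 in the right arm passed. At Y54F10BM.9, 6 of 11 windows passed against cec-4, and at Y66A7A.4 and ceh-91 all 8 passed. Windows in R10F2.6, C34C12.12, C01G12.16 and elo-8 passed against wild-type and not against cec-4. The comparisons share the met-2 set-25 libraries, so these counts are a description. The count was 18 without met-2 set-25 replicate 1, 9 without met-2 set-25 replicate 2, 30 without cec-4 replicate 1, 7 without cec-4 replicate 2 and 109 without either wild-type replicate, and lower windows were 8 without cec-4 replicate 1, 1 without met-2 set-25 replicate 1, and 27 and 28 without wild-type replicates 1 and 2.

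At the level of genes, 9 in the arms rose in met-2 set-25 relative to cec-4 and 0 fell, 0.703% against a background of 0.609% higher and 0.0287% lower (edgeR adjusted p under 0.05). Here too set-25 is left out of the arm genes, and it fell with a log2 fold change over cec-4 of -2.18 (edgeR adjusted p = 0.00439). The lower background again holds met-2 and set-25 and is 0.0143% without them. At an unadjusted p under 0.05, 130 differed in either direction, and DESeq2 called 26 higher and 0 lower, with no genome share taken for either. Of the 9 genes, 8 had also passed against wild-type: enu-3.6, spe-6, Y66A7A.4, ceh-91, Y49E10.25, irld-60, enu-3.5 and Y39E4B.11, all in the right arm. The other gene, R74.2 in the left arm, had 3.01 and 3.51 CPM in met-2 set-25, 0.726 and 0.789 in cec-4 and 1.18 and 1.17 in wild-type. Its log2 fold change was 2.11 over cec-4 (edgeR adjusted p = 0.0353) and 1.47 over wild-type, where it did not pass. The 4 left arm genes that had passed against wild-type did not pass against cec-4, with log2 fold changes of 3.35 for Y54F10BM.3, 1.98 for WBGene00021040, 1.75 for R10F2.6 and 1.11 for Y54F10BM.9. The count was 0 without any single met-2 set-25 or cec-4 library, 21 without wild-type replicate 1 and 26 without wild-type replicate 2.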

How the data were processed

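The authors deposited raw counts of reads for 500 bp windows and for genes, and per the labels' protocols the libraries were made from 5 µg of total RNA after removal of ribosomal RNA, from 50 ng with ScriptSeq v2, and sequenced for 51 cycles in pools of 3. The deposited gene widths (another measure, in bases) are multiples of 3 for 96.6% of genes and were read as coding lengths. Aligner, counting tool, genome build, strand use and the handling of reads with several matches were not given in the sources used here. A deposited table of normalized gene values was not used.

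Counts of all 6 libraries were fitted together with edgeR 4.0.16 in R 4.3.3 (filterByExpr by genotype, TMM, quasi-likelihood test, genotype as the term), over 108036 windows and 13951 genes, with Benjamini-Hochberg adjustment over each whole table and a threshold of 0.05. The SE approximates the error as the size of the log2 fold change over the root of F. The biological coefficient of variation was 21.7% for windows. CPM use TMM library sizes. Of 18359 arm windows, 6673 had too few counts to be tested. The steps were tested on simulated data with a common dispersion. Of 100 windows changed 2-fold 17 were recovered, and of 100 changed 4-fold 90 were. For genes these were 23 and 95. Of 112 windows called 5 were false, and of 126 genes called 8 were. Changes near 2-fold were thus mostly missed.

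Gene positions came from the WBcel235 annotation, which placed 19513 of 20182 gene identifiers. Reads of near copies and of overlapping genes may be shared. The named features are the runs of 3 or more windows, the 10 higher windows of largest log2 fold change with at least 10 counts and separated replicates, up to 10 genes by a like rule, the 5 of smallest p where fewer than 5 passed, and the 5 windows of highest wild-type level per arm. Other loci and the neighbouring genes were named after their values were seen. The members and lists were chosen with earlier results of these data known. Alternatives were other scalings, filters, thresholds, DESeq2 1.42.0, fits of the genotypes compared alone, a replicate block and each library left out.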

Additional observations from a re-analysis of the deposited data

How the results depend on the processing

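Without a filter on low counts, met-2 set-25 had 110 higher and 9 lower windows against wild-type (52 higher on the left, 58 on the right, 69 runs) and 117 and 28 against cec-4, and genes came to 22 and 1 against wild-type and 30 and 1 against cec-4. With scaling factors from the gene table, which move the median of all windows to -0.12, higher windows were 26 (8 on the left, 20 runs) and 18, and summed levels against wild-type had log2 ratios in met-2 set-25 of -0.058, -0.028 and -0.049 for left arm, right arm and centre, and in cec-4 of 0.11, 0.099 and 0.086. Plain library totals gave 0.093 for the left arm in met-2 set-25. Upper quartile scaling gave 16 on the left and 33 against cec-4. Fits of the genotypes compared alone gave 1 lower against wild-type, 99 higher and 14 lower against cec-4, and 24 genes against cec-4. DESeq2 gave 21 and 26 genes, and 3 lower windows against cec-4. At an adjusted p under 0.01 there were 12 higher windows (2 on the left, 10 on the right, 8 runs), 12 against cec-4 and 0 genes in either comparison, and at 0.1 there were 1 and 8 lower windows.

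Deviations of same-numbered libraries correlated at 0.0126 for met-2 set-25 and cec-4, 0.153 for met-2 set-25 and wild-type, and 0.564 for cec-4 and wild-type. Replicate deviations were thus partly shared between cec-4 and wild-type, and the main fit had no replicate term. With a replicate block, windows were 83 higher and 2 lower against wild-type (41 on the left, 42 on the right, 52 runs) and 89 and 11 against cec-4, and genes were 20 and 31.

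With each library left out, higher windows ranged between 9 and 73 (2 to 32 on the left, 6 to 48 on the right, 6 to 49 runs) and lower between 0 and 10, and against cec-4 between 7 and 109 and between 0 and 28. Genes ranged between 0 and 14, and between 0 and 26 against cec-4. Summed log2 ratios ranged in met-2 set-25 between -0.013 and 0.077 (left), 0.0089 and 0.11 (right), -0.031 and 0.11 (centre) and -0.042 and -0.018 (left to right), and in cec-4 between -0.043 and 0.038, -0.061 and 0.044, -0.094 and 0.050, and -0.0075 and 0.020. The cec-4 counts against wild-type were 0 under every alternative run. No window or gene of the 49 and 13 changed direction. Of the genes, 0 of 13 passed with every library left out. Depth leaves 6673 arm windows too low to test. The causes were not tested.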
